A study of Mus musculus with 6 samples.

Results

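The 43 genes described here encode the machinery of autophagy and the transcription factors of the TFEB family. They are the rows, out of 22274 genes in the deposited table, whose Ensembl identifier maps to a mouse symbol of the Atg, Gabarap or Map1lc3 series, to Ulk1, Ulk2, Ulk3, Wipi1 or Wipi2, or to Becn1, Pik3c3, Pik3r4, Rb1cc1, Sqstm1, Nbr1, Optn, Uvrag, Ambra1, Tfeb, Tfe3, Mitf, Bnip3l, Pink1 or Tax1bp1. The rule uses gene names and no measured value, though it was set with earlier results of these data known. The RNA came from isolated epithelial cells of the mouse ileum, sequenced as 3 control libraries and 3 Ogt knockout libraries. Ogt encodes O-GlcNAc transferase, which attaches single sugar residues to nuclear and cytoplasmic proteins. The controls are labelled LoxP and carried floxed Ogt, and the knockout group, labelled as an intestinal stem cell knockout, carried floxed Ogt and Olfm4-CreER, a tamoxifen-inducible recombinase driven by a gene of crypt stem cells. No driver is given for the controls, so effects of the recombinase and of losing Ogt cannot be told apart. Tamoxifen was given on 3 consecutive days to mice aged 2 months, and tissue was taken on day 10. Whether each library is a separate animal is not stated, so a p-value here measures only how these samples spread.

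Autophagy encloses cytoplasm in a double membrane, the autophagosome, and delivers it to the lysosome. The ULK kinase complex starts the process, a lipid kinase complex built on Beclin 1 marks the membrane, ATG9, ATG2 and WIPI proteins supply and position it, and a ubiquitin-like conjugation system attaches proteins of the ATG8 family (LC3 and GABARAP) to it. Receptors link cargo to ATG8 proteins, and TFEB and its relatives, restrained by the growth complex mTORC1, switch on genes of autophagy and of the lysosome. In the ileum the pathway is known for its role in Paneth cells and in defence against bacteria.

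Libraries held 14389429 to 18076486 estimated counts. Ogt stood at 140.1, 127 and 128 CPM in control and 48.5, 43.0 and 36.0 CPM in knockout libraries (-1.63 ± 0.13, adjusted p = 0.00121; CPM is the count scaled to library size with TMM factors, a change is on the log2 scale ± SE, and the adjusted p is from edgeR's quasi-likelihood test with Benjamini-Hochberg adjustment over all genes tested, here and below). Which exons were deleted, and so which reads should be lost, is not stated. The summed level of 8 epithelial markers ran from 14690 to 18420 CPM in control and from 13500 to 16250 CPM in knockout libraries, so the labelled cell type was plain in every library. Of the 8, 1 was called lower, Cdx2, while DESeq2 called 2 and 3 had an unadjusted p under 0.05. Epcam (-0.47 ± 0.18, adjusted p = 0.102) and Cldn7 (-0.36 ± 0.15, adjusted p = 0.125) did not pass but lay lower in every knockout library. The rest overlapped between the groups. Markers of other cells were present too. None of 10 leukocyte markers passed the test (0 also at an unadjusted p under 0.05, with DESeq2 and with limma voom). Their sum ran from 404 to 438 CPM in control and from 233 to 421 CPM in knockout libraries, lowest in knockout 1. There Ms4a1 (1.73 CPM), Cd79a (5.25 CPM), Ptprc (35.9 CPM) and Lyz2 (103 CPM) lay below every other library. Itgam (16.4 CPM) was highest there, and the rest lay within the range of the other libraries. For 8 stromal markers, of which 2 rose, the sums were 322 to 472 and 449 to 514 CPM. For 7 muscle markers, of which 2 rose, they were 836 to 1950 and 910.3 to 1681 CPM. The 2 muscle markers that rose were Acta1 (3.57 ± 0.68) and Myot (7.02 ± 0.68). The others lay below 0 and did not pass the test, Acta2 at -0.45, Myh11 at -0.64, Des at -0.93, Tagln at -0.62 and Cnn1 at -0.97. All 7 tested tuft cell markers fell, from a sum of 87.9 to 91.6 CPM to 13.8 to 18.11 CPM, and 5 of 10 enterocyte markers fell, from 21510 to 29910 CPM to 16930 to 20610 CPM. Of 7 goblet cell markers 2 fell (6755 to 15770 and 4697 to 8215 CPM), of 8 Paneth cell markers 1 fell (222 to 2345 and 1180 to 3046 CPM), and of 8 proliferation genes 1 rose (272 to 534 and 473 to 658 CPM). The Paneth cell sum of 222 CPM was that of control 2, against 2345 CPM in control 1 and 2065 CPM in control 3. The Paneth cell marker that fell, Mptx1, was scarce, with 14.1, 17 and 35 counts in control and 0 in each knockout library. No listed marker was at 0 in every library. In bulk samples such as these, fewer cells of a type and less RNA per cell cannot be told apart, and the part of these markers in the results on autophagy genes was not tested.

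The autophagy genes did not move as a block. Of the 42 genes with enough counts to be tested, 5 were higher and 8 lower in knockout libraries at an adjusted p under 0.05. The lower genes were Tfeb, Ulk1, Ulk2, Atg4c, Atg12, Map1lc3a, Nbr1 and Pink1, and the higher genes were Becn1, Wipi2, Atg16l1, Atg3 and Atg7. Among all 14005 genes tested 18.7% were called, 9.33% higher and 9.37% lower, against 31.0% of the 42, 11.9% higher and 19.0% lower. Changes of at least 2-fold were called for 3 genes, Map1lc3a, Tfeb and Atg4c, all lower, where 5.11% of all genes passed both criteria. The median log2 fold change was -0.10 for the 42 genes and -0.05 for all genes tested, and the median size of a change regardless of sign was 0.36 against 0.33. The groups did not overlap in CPM for 25 of the 42 genes (59.5%), against 39.8% of all genes tested. Atg9b, the gene left untested, had 5, 5 and 3 counts in control and 2, 7 and 1 counts in knockout libraries.

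The split into higher and lower genes depended on how libraries were scaled. Library size alone, in place of TMM factors, shifted the all-gene median (log2) from -0.05 to 0.09, and the calls became 11 higher and 6 lower among the 42 genes and 2045 higher and 859 lower among all genes (1307 and 1312 with TMM factors). Fewer genes were called with 1 library left out, except that 16 were called without control 1. Leaving out control 2 gave 10 calls and leaving out control 3 gave 6, whereas 7 remained in number after removal of knockout 1 or of knockout 2, and 3 after removal of knockout 3. Map1lc3a and Atg4c were called in each of these 6 fits.

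**Figure D1:**
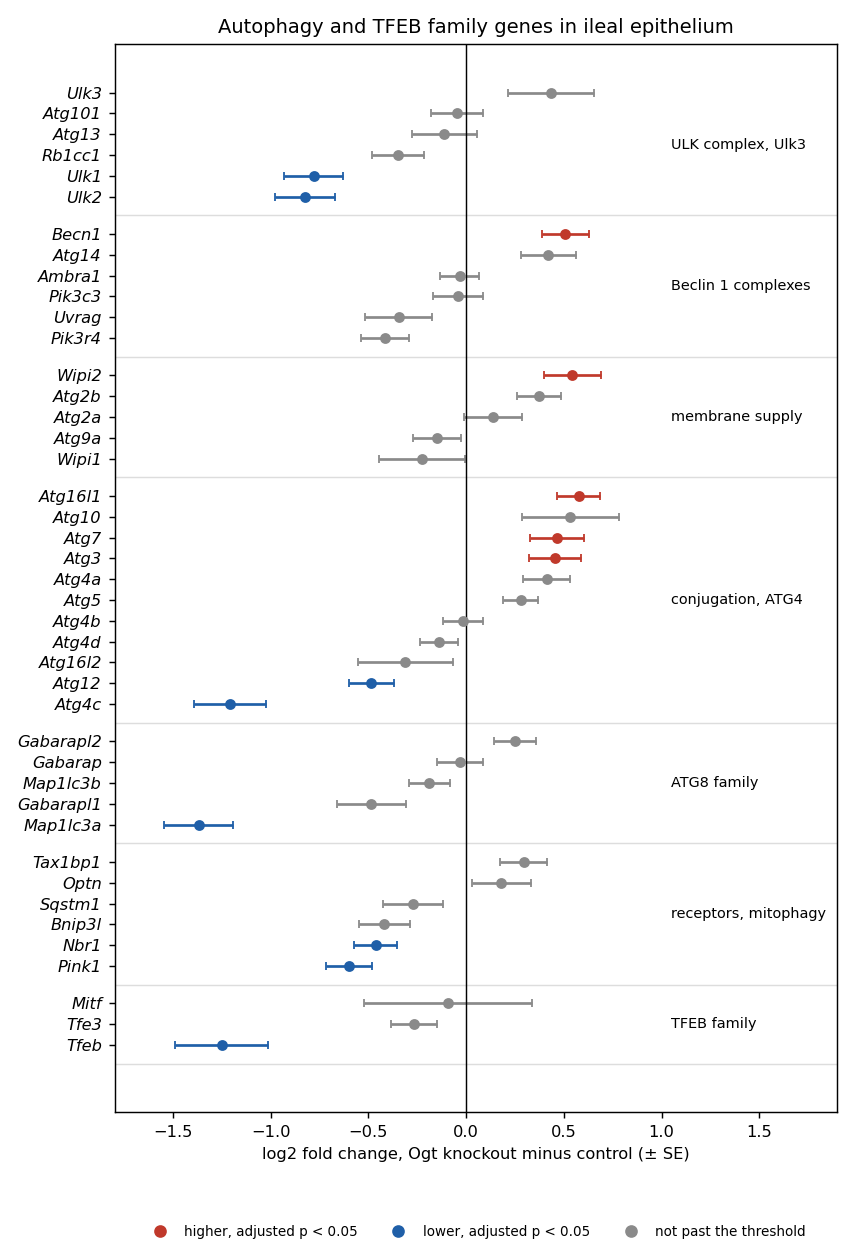
Log2 fold change of each of the 42 tested genes (horizontal axis, Ogt knockout minus control; points with bars are the estimate ± SE), with genes by role along the vertical axis. Red marks the 5 genes called higher and blue the 8 called lower; Map1lc3a (-1.37) and Tfeb (-1.25) lie farthest from 0.

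**Figure D2:**
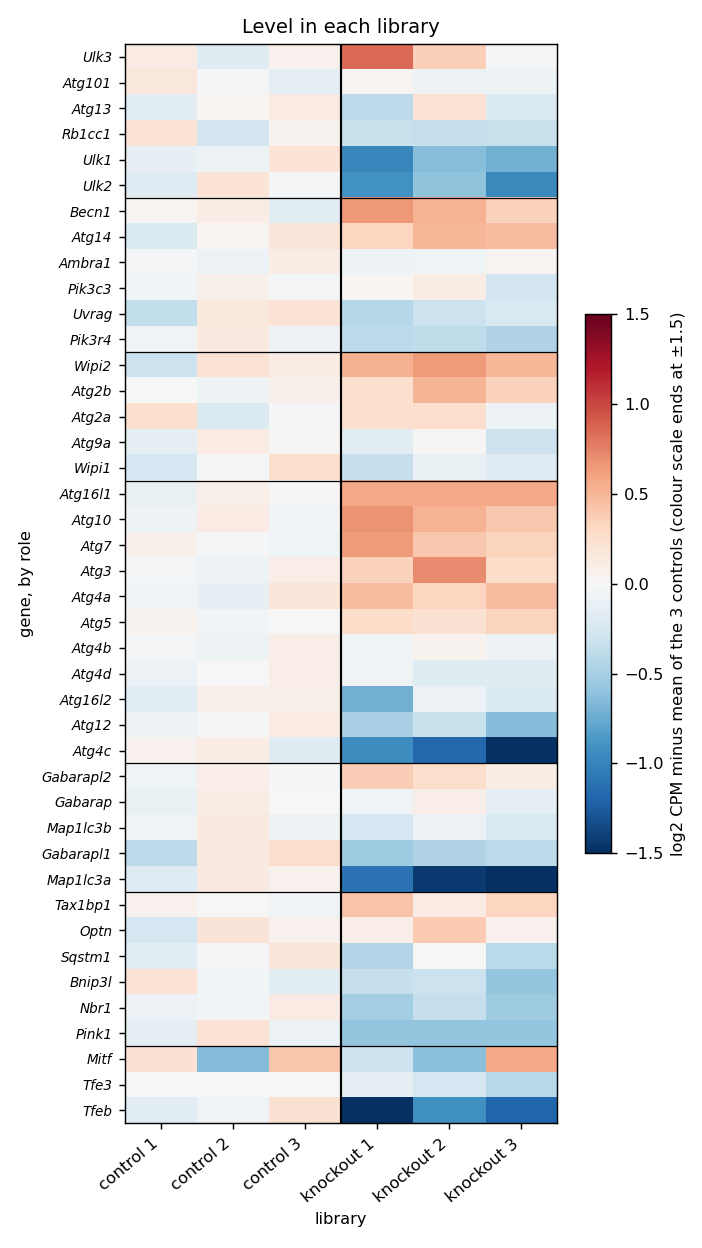
Level of the 42 tested genes (rows, by role) in each of the 6 libraries (columns), as log2 CPM minus the mean of the 3 controls, in colours that end at ±1.5. Red and blue genes stand side by side in the knockout columns within most roles, as in the conjugation group, where Atg16l1 was called higher and Atg4c lower.

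Of the TFEB family, Tfeb fell and its relatives did not pass the test. Tfeb, a transcription factor for lysosomal and autophagy genes, stood at 11.9, 12.8 and 15.6 CPM in control and 3.94, 7.05 and 5.87 CPM in knockout libraries. All 3 knockout libraries lay below all 3 controls. The change was -1.25 ± 0.24 (adjusted p = 0.0116), and the call ended when control 3 was left out (adjusted p = 0.0575) and when knockout 3 was (adjusted p = 0.0505). Tfe3, a close relative with overlapping targets, stood at 28.9, 28.9 and 28.6 CPM in control and 26.3, 23.9 and 21.6 CPM in knockout libraries. The groups did not overlap, but the change was small and did not pass (-0.27 ± 0.12, adjusted p = 0.156). Mitf, the relative best known from pigment cells, stood at 2.01, 1.09 and 2.29 CPM in control and 1.38, 1.11 and 2.54 CPM in knockout libraries, where 3 counts correspond to 0.159 to 0.207 CPM. Its groups overlapped throughout (-0.09 ± 0.43, adjusted p = 0.898), and its sign turned with library size alone (0.05).

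FPKM values correct for transcript length and so let genes be compared. Sums of FPKM carry the authors' scaling, under which the median log2 fold change of the tested genes with at least 1 FPKM was 0.12 with 0.1 added, while shares within a family do not depend on it. By this measure Tfe3 was the most abundant of the family in control libraries (9.11 ± 0.343 FPKM, mean ± SD, n = 3), followed by Tfeb (5.96 ± 0.550 FPKM) and Mitf (0.383 ± 0.0666 FPKM). Tfeb held 36.0, 38.3 and 41.5% of the summed FPKM of the family in control and 17.3, 28.9 and 26.6% in knockout libraries, and Tfe3 held 61.5, 59.7 and 55.8% and then 80.1, 69.2 and 68.4%. Both shares were apart between the groups, with an exact two-sided permutation p of 0.1, the smallest that 3 against 3 libraries allow (0.182 after Benjamini-Hochberg adjustment over the 20 shares compared within families here). The summed FPKM of the family stood at 15.4 ± 0.450 in control and 11.4 ± 0.752 in knockout libraries (n = 3, exact permutation p = 0.1).

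Both kinases of the initiation complex fell. Ulk1, the main kinase that starts autophagy, stood at 23.1, 23.9 and 29.0 CPM in control and 12.8, 16.2 and 15.2 CPM in knockout libraries (-0.78 ± 0.15, adjusted p = 0.0124). Ulk2, its close and partly interchangeable relative, stood at 30.7, 40.6 and 34.9 CPM in control and 18.7, 23.2 and 18.0 CPM in knockout libraries (-0.83 ± 0.15, adjusted p = 0.0112). Neither gene had any overlap between the groups, and knockout 2 was the highest knockout library for both. Ulk2 held 55.4 ± 4.597% of their summed FPKM in control and 54.9 ± 2.995% in knockout libraries (n = 3, exact permutation p = 0.9), while the sum stood at 10.6 ± 0.780 and 6.65 ± 0.916 FPKM (exact permutation p = 0.1). The call of Ulk1 ended when control 3 was left out (adjusted p = 0.0598) and when knockout 3 was (0.05004, not under the threshold), and that of Ulk2 without knockout 3 (adjusted p = 0.0549).

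The other parts of the initiation complex did not pass the test. Rb1cc1, which encodes the scaffold FIP200 and was the most abundant of the group (18.2 FPKM over all libraries), stood at 105, 74.4 and 93.2 CPM in control and 71.5, 71.0 and 71.6 CPM in knockout libraries. The knockout libraries were almost level and lay just below the lowest control (-0.35 ± 0.13, adjusted p = 0.102), and without control 2 the gene was called (adjusted p = 0.0434). Atg13 (-0.11 ± 0.17) and Atg101 (-0.05 ± 0.13), regulatory subunits, overlapped between the groups. Ulk3, a related kinase, stood at 18.3, 14.8 and 17.6 CPM in control and 30.4, 21.6 and 16.7 CPM in knockout libraries. Knockout 1 was far above the rest and knockout 3 lay among the controls (0.43 ± 0.22, adjusted p = 0.205).

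In the Beclin 1 complexes Becn1 rose. It encodes the scaffold on which the lipid kinase is assembled and stood at 103, 108 and 89.4 CPM in control and 157, 144 and 128 CPM in knockout libraries (0.51 ± 0.12, adjusted p = 0.0249). The groups did not overlap. Its estimated counts were not whole in 5 libraries, as happens when reads are shared out between similar sequences. Leaving out control 3, knockout 1 or knockout 2 ended the call (adjusted p = 0.0619, 0.0770 and 0.0826). The partners of Becn1 lay on both sides of 0, and none passed the test. Atg14 did with DESeq2, library size alone and limma on log2(FPKM + 0.1) or log2(FPKM + 1). Pik3r4 passed with DESeq2 and with the filter of 1 CPM in 3 libraries, and Uvrag without control 1. Atg14, the subunit that directs the complex to autophagosome formation, stood at 15.7, 18.6 and 20.5 CPM in control and 22.7, 25.6 and 24.9 CPM in knockout libraries (0.42 ± 0.14, adjusted p = 0.0714). Uvrag, the subunit that takes its place in the endosomal form, stood at 19.7, 28.3 and 29.4 CPM in control and 18.8, 20.3 and 21.7 CPM in knockout libraries (-0.35 ± 0.17, adjusted p = 0.195). Atg14 had separate groups, with every knockout library above every control, and Uvrag overlapped, with control 1 among the knockout libraries. Pik3r4, the regulatory subunit, stood at 21.1, 23.9 and 20.6 CPM in control and 16.7, 16.7 and 15.9 CPM in knockout libraries, with no overlap and an adjusted p on the far side of the threshold (-0.41 ± 0.12, adjusted p = 0.0508). The catalytic subunit Pik3c3 (-0.04 ± 0.13) and the regulator Ambra1 (-0.03 ± 0.10) overlapped between the groups.

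Among the genes of membrane supply Wipi2 rose. WIPI2 reads the lipid made by the Beclin 1 complex and recruits ATG16L1, and Wipi2 stood at 58.0, 84.0 and 78.4 CPM in control and 105, 113 and 103 CPM in knockout libraries (0.54 ± 0.14, adjusted p = 0.0353). The groups were separate, and control 1 lay far below the other controls. The call ended without control 3 (adjusted p = 0.0628), knockout 1 (0.0772), knockout 2 (0.113) or knockout 3 (0.0894). Wipi1, its relative, was scarcer (2.05 against 18.7 FPKM over all libraries) and did not pass (-0.23 ± 0.22, adjusted p = 0.506). Wipi2 held 86.6, 89.3 and 86.8% of their summed FPKM in control and 92.1, 91.5 and 91.8% in knockout libraries, without overlap (exact permutation p = 0.1). Of the lipid transfer genes, Atg2b stood at 33.1, 31.4 and 35.01 CPM in control and 39.4, 47.2 and 42.2 CPM in knockout libraries (0.37 ± 0.11, adjusted p = 0.0517). Its groups did not overlap, and its counts were not whole in any library. Atg2b was called with DESeq2, with DESeq2 size factors in edgeR and with library size alone. Atg2a overlapped between the groups (0.14 ± 0.15, adjusted p = 0.548), as did Atg9a, which encodes a scramblase carried on vesicles and was the most abundant gene of this group by FPKM (114, 138 and 128 CPM in control and 113, 128 and 102 CPM in knockout libraries; -0.15 ± 0.12, adjusted p = 0.427).

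The conjugation system held 3 higher and 2 lower genes among 11 (27.3% and 18.2%, against 9.33% and 9.37% of all genes tested). Atg16l1, which sets where conjugation takes place and whose human counterpart is a known risk gene for Crohn's disease, stood at 19.5, 22.4 and 21.2 CPM in control and 31.4, 31.3 and 31.2 CPM in knockout libraries (0.57 ± 0.11, adjusted p = 0.0128). The knockout libraries were almost level and well above every control. The call was lost without knockout 3 (adjusted p = 0.0517). Its scarce relative Atg16l2 stood at 4.26, 5.03 and 5.06 CPM in control and 2.90, 4.5 and 4.13 CPM in knockout libraries (-0.31 ± 0.24, adjusted p = 0.408). In FPKM Atg16l2 was level, at 1.73 ± 0.307 in control and 1.73 ± 0.330 in knockout libraries (n = 3). Atg16l1 held 79.3 ± 2.29% of their summed FPKM in control and 86.2 ± 1.86% in knockout libraries (n = 3, exact permutation p = 0.1). Atg3, the enzyme that transfers ATG8 proteins to lipid, stood at 53.7, 52.1 and 58.8 CPM in control and 69.7, 89.8 and 66.2 CPM in knockout libraries (0.46 ± 0.13, adjusted p = 0.0488). Atg7, the activating enzyme for both ATG8 and ATG12, stood at 14.8, 13.9 and 13.4 CPM in control and 21.8, 18.6 and 17.8 CPM in knockout libraries (0.46 ± 0.14, adjusted p = 0.0495). For both genes every knockout library lay above every control, but the adjusted p was close to the threshold. The call of Atg3 ended without any 1 of the 6 libraries (adjusted p from 0.0525 without control 1 to 0.130 without knockout 2) and with limma voom (adjusted p = 0.0585). That of Atg7 ended without any 1 library other than control 1 (adjusted p up to 0.142), with limma voom (adjusted p = 0.0547) and with no count filter (adjusted p = 0.0629).

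Atg12 and Atg4c went the other way. Atg12, the ubiquitin-like protein that is joined to ATG5, stood at 62.6, 65.4 and 72.4 CPM in control and 47.6, 53.1 and 42.4 CPM in knockout libraries. All knockout libraries were below all controls (-0.49 ± 0.12, adjusted p = 0.0246). Its call ended without control 2, control 3, knockout 1 or knockout 3 (adjusted p = 0.0582, 0.101, 0.0686 and 0.0925), with library size alone (adjusted p = 0.0568), and with limma on log2(FPKM + 0.1) or log2(FPKM + 1) (adjusted p = 0.0786 and 0.0799). Atg4c, a protease of the family that trims ATG8 proteins before conjugation and releases them from the membrane, stood at 20.9, 21.5 and 17.6 CPM in control and 10.4, 8.83 and 6.88 CPM in knockout libraries. The lowest control was well above the highest knockout library (-1.21 ± 0.18, adjusted p = 0.00545), and the gene passed the test without any 1 library (adjusted p up to 0.0288). Atg4a, a relative, stood at 25.6, 24.4 and 30.1 CPM in control and 36.8, 33.4 and 36.5 CPM in knockout libraries. All knockout libraries were above all controls, and the adjusted p fell just short of the threshold (0.41 ± 0.12, adjusted p = 0.0502), while Atg4a was called with DESeq2, limma voom, library size alone and both FPKM fits. Atg4b, the protease with the largest share of the family in control libraries, and Atg4d overlapped between the groups (-0.02 ± 0.10, adjusted p = 0.919 and -0.14 ± 0.10, adjusted p = 0.353), and the counts of Atg4d were not whole in any library.

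Within the summed FPKM of the 4 proteases, Atg4a held 23.3, 24.2 and 25.5% in control and 33.6, 33.6 and 38.1% in knockout libraries. Atg4c held 14.6, 16.4 and 11.1% and then 6.91, 6.64 and 5.53%. Both shares were apart between the groups (exact permutation p = 0.1 each), while the sum stood at 47.7 ± 3.94 and 48.9 ± 1.36 FPKM (n = 3, exact permutation p = 0.8). Atg5, the partner of ATG12, stood at 57.7, 54.0 and 55.3 CPM in control and 67.4, 65.2 and 70.2 CPM in knockout libraries. It did not overlap and did not pass (0.28 ± 0.09, adjusted p = 0.0623), but did with library size alone and both FPKM fits. Atg10, the enzyme that joins ATG12 to ATG5, was scarce at 2.01, 2.30 and 2.06 CPM in control and 3.39, 3.06 and 2.80 CPM in knockout libraries, also without overlap (0.53 ± 0.25, adjusted p = 0.169).

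**Figure D3:**
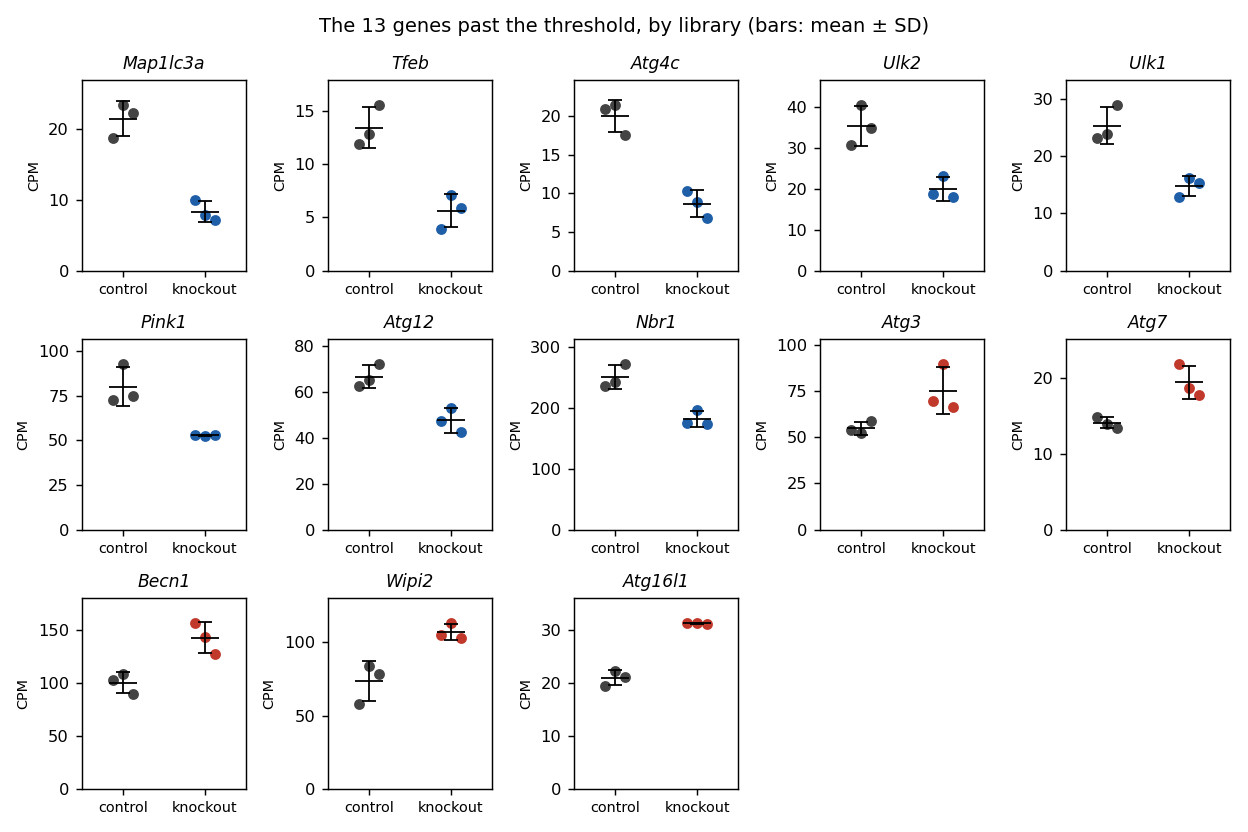
CPM of the 13 called genes (vertical axis from 0), with control libraries in grey on the left of each panel and Ogt knockout libraries in colour on the right; points are libraries and bars the mean ± SD of 3. In none of the 13 panels do the groups overlap, which the choice of genes by adjusted p makes likely and which adds no further support. Atg16l1 stood at 19.5, 22.4 and 21.2 CPM in control and 31.4, 31.3 and 31.2 CPM in knockout libraries.

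Promoters were searched for the letters that TFEB and related factors are known to bind, CACGTG and its longer form TCACGTGA. Each reads the same on both strands, and the longer form contains the shorter. RefSeq windows of 300 bases (250 before and 50 after the annotated start, build GRCm38.p6, which is older than the GRCm39 build of the deposited files) were at hand for 36 of the 43 genes. CACGTG was found for 4 of the 36 (11.1%), Atg3, Atg5, Atg7 and Atg14, against 11.3% of the tested genes with a window. It was in 8.89% of the 45 windows of these genes, in 9.42% of the windows of tested genes and in 7.15% of all 32851 windows. TCACGTGA was found in 1 of the 45 windows (2.22%), against 1.70% of the windows of tested genes and 0.974% of all windows. Atg3 and Atg7 are among the genes called higher, and Atg5 and Atg14 had positive changes that did not pass the test. The letters CACGTG were not found in the windows of Wipi2, called higher, or of Tfeb, Ulk1, Ulk2, Atg4c, Nbr1 and Pink1, called lower. They were also absent from those of Atg4a, Atg2a, Atg2b, Atg10, Ulk3, Gabarapl2, Tax1bp1 and Optn, which had positive changes that did not pass. A link between these letters and the direction of change was not tested. For the other called genes, Becn1, Atg16l1, Atg12 and Map1lc3a, no window was at hand. The 4 windows that hold CACGTG are shown, since they are the ones in which the letters occur at all. They are in lower case with each CACGTG in capitals, 5′ to 3′ on the strand of the gene. In the window of Atg3 (chr16:45158579-45158878, plus strand) the matches begin 94 and 71 bases before the start, in that of Atg7 (chr6:114670846-114671145, plus strand) 132 bases before it, in that of Atg5 (chr10:44268089-44268388, plus strand) 14 bases before it and in that of Atg14 (chr14:47568385-47568684, minus strand) 1 base before it. A match describes letters and does not show binding.
Atg3: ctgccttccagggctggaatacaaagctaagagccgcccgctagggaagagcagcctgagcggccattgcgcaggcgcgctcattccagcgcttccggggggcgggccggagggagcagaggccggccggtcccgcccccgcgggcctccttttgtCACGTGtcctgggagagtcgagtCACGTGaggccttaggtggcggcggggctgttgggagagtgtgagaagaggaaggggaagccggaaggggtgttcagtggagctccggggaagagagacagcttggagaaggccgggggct
Atg7: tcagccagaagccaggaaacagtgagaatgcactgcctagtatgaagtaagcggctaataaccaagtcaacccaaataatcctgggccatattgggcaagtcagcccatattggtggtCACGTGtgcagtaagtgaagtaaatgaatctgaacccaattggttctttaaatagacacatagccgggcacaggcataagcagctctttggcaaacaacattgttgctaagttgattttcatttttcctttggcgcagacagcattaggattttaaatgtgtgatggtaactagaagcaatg
Atg5: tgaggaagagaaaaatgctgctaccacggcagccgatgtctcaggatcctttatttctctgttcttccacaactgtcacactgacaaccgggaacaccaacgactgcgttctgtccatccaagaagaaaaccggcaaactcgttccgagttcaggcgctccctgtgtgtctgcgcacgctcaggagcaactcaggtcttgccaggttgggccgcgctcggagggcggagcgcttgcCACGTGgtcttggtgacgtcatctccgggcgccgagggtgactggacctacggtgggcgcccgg
Atg14: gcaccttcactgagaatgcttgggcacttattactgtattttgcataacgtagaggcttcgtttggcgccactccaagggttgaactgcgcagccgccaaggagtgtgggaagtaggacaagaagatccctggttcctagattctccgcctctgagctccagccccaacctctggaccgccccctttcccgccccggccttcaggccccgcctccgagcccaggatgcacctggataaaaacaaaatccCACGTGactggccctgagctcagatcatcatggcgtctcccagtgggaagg

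In the ATG8 family Map1lc3a fell and the other 4 genes did not pass the test. Map1lc3a, which encodes LC3A, stood at 18.7, 23.5 and 22.3 CPM in control and 9.95, 7.89 and 7.14 CPM in knockout libraries. No knockout library came near the controls (-1.37 ± 0.17, adjusted p = 0.00312), and the gene passed the test without any 1 library (adjusted p up to 0.0214). Map1lc3b, which encodes LC3B, the form most used as a marker of autophagosomes, stood at 93.8, 108 and 92.9 CPM in control and 82.1, 92.3 and 83.6 CPM in knockout libraries. All knockout libraries lay slightly below the lowest control, and the change did not pass (-0.19 ± 0.10, adjusted p = 0.240). Gabarap, the most abundant of all 43 genes at 259 FPKM over all libraries, stood at 326, 378 and 350.3 CPM in control and 338, 376 and 317 CPM in knockout libraries. The groups overlapped throughout (-0.03 ± 0.12, adjusted p = 0.874), and the sign turned with library size alone (0.10) and on log2(FPKM + 0.1) (0.10).

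The other GABARAP genes leaned in opposite directions. Gabarapl2, also known as GATE-16, stood at 101, 113 and 103 CPM in control and 136, 127 and 114 CPM in knockout libraries. Each knockout library was above each control, without passing the test (0.25 ± 0.11, adjusted p = 0.139), and the gene passed with library size alone (0.38, adjusted p = 0.0255) and on log2(FPKM + 0.1) (0.38, adjusted p = 0.0277). Gabarapl1 stood at 21.5, 31.0 and 33.9 CPM in control and 19.5, 20.7 and 21.5 CPM in knockout libraries. Control 1 lay at the level of the knockout libraries (-0.49 ± 0.18, adjusted p = 0.0940), and without control 1 the gene was called (adjusted p = 0.0126).

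The summed FPKM of the ATG8 family stood at 393 ± 20.7 in control and 415 ± 24.8 in knockout libraries (n = 3, exact permutation p = 0.4). Gabarap held 63.4 ± 0.433% and 64.5 ± 1.41% of it (exact permutation p = 0.3). Map1lc3a held 4.39, 4.79 and 4.86% in control and 2.24, 1.68 and 1.74% in knockout libraries. Gabarapl2 held 15.7, 15.3 and 14.9% and then 20.4, 17.9 and 18.5%. For these last genes the groups were apart (exact permutation p = 0.1 each), and Map1lc3a held under 5% of the sum in every library. Map1lc3b held 13.86, 12.2 and 12.17% in control and 11.46, 11.51 and 12.16% in knockout libraries, groups only just apart (exact permutation p = 0.1). Estimated counts of the 5 genes were whole in every library.

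**Figure D4:**
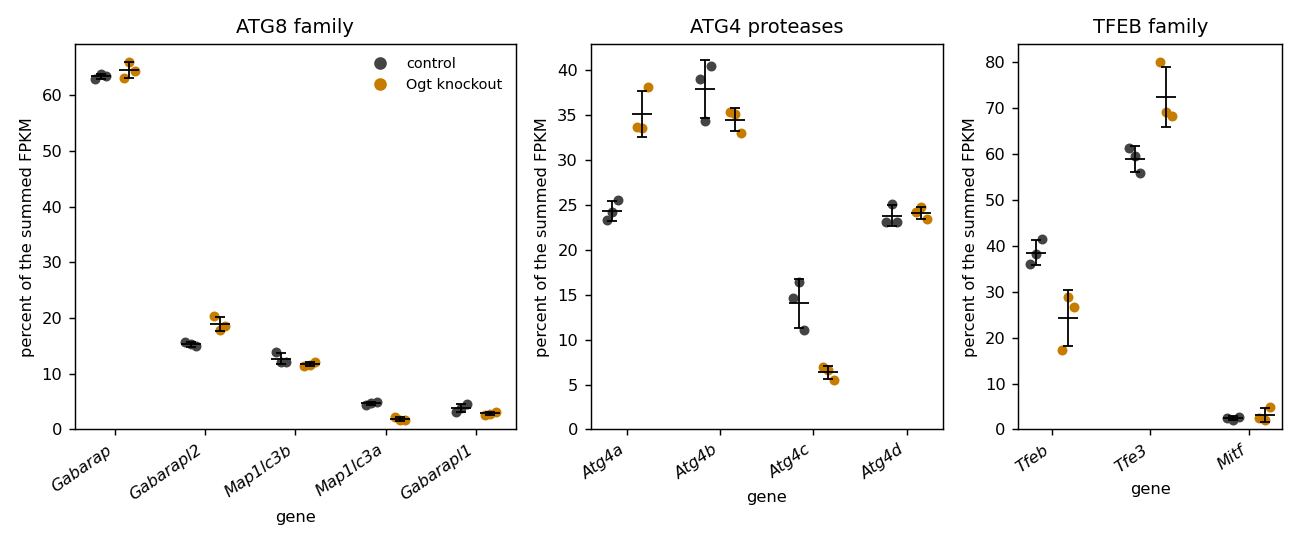
Percent of the summed FPKM of 3 families held by each gene (vertical axes from 0) in control (grey) and Ogt knockout (orange) libraries; points are libraries and bars the mean ± SD of 3. Tfeb held 36.0, 38.3 and 41.5% in control and 17.3, 28.9 and 26.6% in knockout libraries. Map1lc3a, Map1lc3b (only just) and Atg4c also held less, and Gabarapl2, Atg4a and Tfe3 held more, in every knockout library than in any control.

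Of the cargo receptors and mitophagy genes, Nbr1 and Pink1 fell. Nbr1, a receptor for ubiquitinated cargo, stood at 236, 243 and 273 CPM in control and 175, 198 and 173 CPM in knockout libraries (-0.46 ± 0.11, adjusted p = 0.0248). Pink1, the kinase that marks damaged mitochondria for removal, stood at 72.8, 92.9 and 74.7 CPM in control and 52.8, 52.7 and 53.2 CPM in knockout libraries (-0.60 ± 0.12, adjusted p = 0.0124). Both genes had separate groups, and the knockout values of Pink1 were nearly identical. The call of Nbr1 ended without any 1 library other than control 1 (adjusted p up to 0.0982) and with library size alone (adjusted p = 0.0648). Leaving out knockout 2 or knockout 3 ended that of Pink1 (adjusted p = 0.0522 and 0.0535).

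The remaining receptors did not pass the test. Bnip3l, a receptor in the outer mitochondrial membrane also called NIX, stood at 125, 105 and 95.3 CPM in control and 85.0, 86.0 and 72.3 CPM in knockout libraries. Its groups did not overlap (-0.42 ± 0.13, adjusted p = 0.0577), and the gene was called with DESeq2. Sqstm1, which encodes p62, stood at 242, 266 and 305 CPM in control and 199, 271 and 204 CPM in knockout libraries. Knockout 2 lay within the controls (-0.27 ± 0.15, adjusted p = 0.248), and the counts were not whole in any library. Tax1bp1, a receptor for ubiquitinated cargo and the most abundant gene of this group (151 FPKM over all libraries), stood at 459, 439 and 424 CPM in control and 592, 479 and 549.5 CPM in knockout libraries. Every knockout library was above every control (0.29 ± 0.12, adjusted p = 0.129), and the gene passed with library size alone (0.43, adjusted p = 0.0362) and on log2(FPKM + 0.1) (0.43, adjusted p = 0.0330). Optn, which encodes the receptor optineurin, overlapped between the groups (0.18 ± 0.15, adjusted p = 0.442).

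Further autophagy genes outside the 43 also moved both ways. Of 39 tested genes in that list 5 were higher and 8 lower (12.8% and 20.5%, against 9.33% and 9.37% of all genes tested). Their median log2 fold change was 0.00. With library size alone 10 were higher and 7 lower, as were 2045 and 859 of all genes. Retreg1, an endoplasmic reticulum receptor also called FAM134B, stood at 51.4, 39.0 and 49.2 CPM in control and 12.9, 17.4 and 16.9 CPM in knockout libraries (-1.56 ± 0.16, adjusted p = 0.00190). Bnip3, the mitochondrial receptor related to Bnip3l, stood at 25.4, 30.9 and 27.9 CPM in control and 13.4, 14.6 and 13.1 CPM in knockout libraries (-1.03 ± 0.13, adjusted p = 0.00301). Vps11, a core subunit of the complexes that tether membranes to the lysosome, stood at 24.2, 29.6 and 32.1 CPM in control and 52.4, 51.8 and 50.7 CPM in knockout libraries (0.85 ± 0.12, adjusted p = 0.00477). These 3 genes had groups far apart and passed the test without any 1 library. Rab7, the GTPase of late endosomes, was the most abundant by FPKM and stood at 231, 267 and 253 CPM in control and 299, 295 and 282 CPM in knockout libraries. Its change did not pass (0.22 ± 0.10, adjusted p = 0.172) but did with library size alone (0.36, adjusted p = 0.0325). Leaving out control 3, knockout 2 or knockout 3 reduced the calls in this list from 13 to 7.

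Genes that control TFEB moved both ways too. Of 17 tested genes, the relative Tfec included, 1 was higher and 4 were lower (29.4% called, against 18.7% of all genes tested), while library size alone gave 2 higher and 1 lower. Fnip2, a partner of folliculin in nutrient signalling to TFEB, stood at 9.31, 7.94 and 10.7 CPM in control and 4.29, 3.94 and 4.76 CPM in knockout libraries (-1.10 ± 0.20, adjusted p = 0.00980). Zkscan3, a repressor of autophagy genes, stood at 49.3, 40.6 and 41.0 CPM in control and 31.4, 29.0 and 31.8 CPM in knockout libraries (-0.51 ± 0.12, adjusted p = 0.0223). Ppp3cb, a catalytic subunit of calcineurin, the phosphatase that activates TFEB, stood at 64.5, 55.9 and 51.8 CPM in control and 40.9, 35.3 and 43.8 CPM in knockout libraries (-0.52 ± 0.12, adjusted p = 0.0250). None of these overlapped between the groups. The call of Fnip2 ended without control 3 (adjusted p = 0.0522), that of Zkscan3 without control 3 or any 1 knockout library (adjusted p up to 0.0856), and that of Ppp3cb without any 1 of the 6 libraries (adjusted p up to 0.0926). With library size alone Zkscan3 (adjusted p = 0.0754) and Ppp3cb (adjusted p = 0.0810) were not called. Fnip1, the relative of Fnip2, also fell (-0.89 ± 0.25, adjusted p = 0.0457) and Rptor, the mTORC1 subunit that binds substrates, rose (0.39 ± 0.11, adjusted p = 0.0470), each named after its value was seen. Without 1 library the adjusted p of these 2 genes reached 0.126 and 0.142. Ywhae, the abundant 14-3-3 gene of the list, stood at 323, 297 and 298 CPM in control and 399, 386 and 367 CPM in knockout libraries. Its groups did not overlap and it did not pass (0.33 ± 0.10, adjusted p = 0.0595), but did with DESeq2 (adjusted p = 0.00880) and library size alone (adjusted p = 0.0162).

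Among 15 genes of energy and nutrient signalling and FOXO factors, 3 were higher and 3 lower (20.0% each, against 9.33% and 9.37% of all genes tested). Foxo3, a transcription factor known to act on autophagy genes in muscle, stood at 139, 121 and 150.5 CPM in control and 74.1, 74.9 and 60.3 CPM in knockout libraries (-0.97 ± 0.13, adjusted p = 0.00362). The knockout libraries lay far below the controls. Akt1s1 (1.07 ± 0.14, adjusted p = 0.00327) and Deptor (-0.84 ± 0.14, adjusted p = 0.00702), both inhibitory partners of mTOR, changed in opposite directions, and these 3 genes passed the test without any 1 library. Prkab1, the AMP kinase subunit most abundant in the list, stood at -0.04 ± 0.19 and at 0.08 with library size alone. Another subunit, Prkag1, was called higher (0.38 ± 0.10, adjusted p = 0.0313), but not without control 3 or any 1 knockout library. Prkaa1 (-0.27 ± 0.11), Prkaa2 (-0.43 ± 0.18) and Prkab2 (-0.09 ± 0.20) did not pass the test. With the 17 genes that control TFEB added to these 15, 11 of 32 were called (34.4%, against 18.7% of all genes tested). The calls numbered 4 without control 3 or knockout 3 and 5 without knockout 1 or knockout 2.

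Of 33 lysosomal genes described as TFEB targets 6 were higher and 0 lower by edgeR, while Tfeb itself fell. At an unadjusted p under 0.05, 10 were higher and 4 lower. DESeq2 called 8 higher and 0 lower, and limma voom 6 and 0. The 6 were Atp6v1d, Atp6v1a, Atp6v1b2, Atp6v0d1 and Atp6v1h, 5 of the 9 genes in the list for the proton pump that acidifies the lysosome, and Galns, a sulphatase that degrades glycosaminoglycans. Their share of 18.2% stood against 9.33% of all genes called higher. In either direction 18.2% of the list was called as well, against 18.7% of all genes tested. The median log2 fold change of the list was 0.14. Atp6v1d stood at 71.3, 71.3 and 80.7 CPM in control and 133, 133 and 134 CPM in knockout libraries (0.84 ± 0.10, adjusted p = 0.00261). Galns stood at 23.2, 22.9 and 22.3 CPM in control and 39.7, 45.5 and 39.4 CPM in knockout libraries (0.86 ± 0.11, adjusted p = 0.00313), and Atp6v1a at 83.2, 79.7 and 92.3 CPM in control and 128, 134 and 130.4 CPM in knockout libraries (0.62 ± 0.10, adjusted p = 0.00589). These 3 genes had no overlap between the groups and passed the test without any 1 library. The calls of Atp6v1b2 (0.39 ± 0.09, adjusted p = 0.0228), Atp6v0d1 (0.49 ± 0.12, adjusted p = 0.0271) and Atp6v1h (0.39 ± 0.11, adjusted p = 0.0398) ended without knockout 1 or knockout 2, among others (adjusted p up to 0.0787, 0.0948 and 0.120). The other 4 pump genes did not pass and stood below 0 with TMM factors, of which the last 2 turned above 0 with library size alone, Atp6v1c1 at -0.21 ± 0.10, Atp6v0d2 at -0.67 ± 0.48, Atp6ap1 at -0.06 ± 0.09 and Atp6v0e at -0.02 ± 0.10. Lamp1, a lysosomal membrane protein gene and the most abundant of the list, stood at 625, 868 and 802 CPM in control and 923, 1074 and 908 CPM in knockout libraries. Every knockout library was above every control, and the change did not pass (0.34 ± 0.16, adjusted p = 0.168). The number of genes called was 11 with library size alone and 3 without knockout 1 or knockout 2, and without control 1 the split was 6 higher and 1 lower. CACGTG was found for 15 of the 25 genes of the list that have a promoter window (60.0%), but the list comes from work on TFEB that used such letters.

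**Figure D5:**
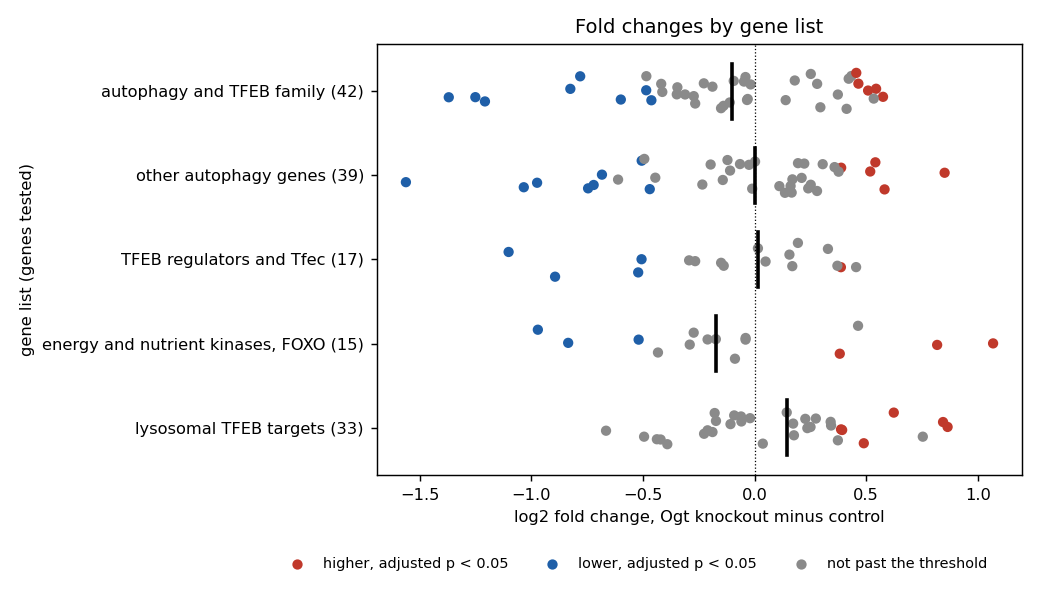
Log2 fold change (horizontal axis, Ogt knockout minus control) of each tested gene in 5 lists (vertical axis, with the number of genes tested in brackets); black bars are medians, red points higher and blue points lower at an adjusted p under 0.05. Calls stand on both sides of 0 in the upper 4 lists, and the 6 calls among lysosomal targets are all higher.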

How the data were processed

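Bulk RNA-seq of ileal epithelial cells was compared between 3 control and 3 Ogt knockout libraries. Per the labels' protocols, the Trizol-extracted RNA went into NEBNext Ultra RNA libraries. That kit does not mark strand, so a gene and an overlapping antisense gene share reads. GRCm39 and mm39 are the builds in the submitters' processing notes. For the aligner, counting tool, annotation and filters the entry is the same: not given in the sources used here. Per the file headers, the table deposited by the authors holds, for each gene and library, an estimated count (expected count) and an FPKM value. In each library 7.68% to 8.09% of these counts were not whole (tolerance 0.001).

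Counts were rounded to whole numbers, and every row holds a gene identifier. Names came from a reference table by Ensembl identifier (22219), from the deposited table (44), or were lacking (11). Genes were kept with filterByExpr (minimum count 10, minimum total 15), scaled with TMM factors and tested with the quasi-likelihood test of edgeR 4.0.16 (R 4.3.3), Benjamini-Hochberg adjusted over 14005 genes with a threshold of 0.05. The fit was tested on simulated data. Levels between genes were compared on FPKM, which the authors scaled for length and library total. No libraries agreed within sampling noise (chi-square per gene at least 19.5). At these depths 3 counts correspond to 0.159 to 0.207 CPM.

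The gene set, the lists and the rules were chosen with earlier results of these data known. Genes named are those past the threshold; per role the lowest adjusted p and the highest mean FPKM; all of the ATG8 and TFEB families; and, per further list, the 3 lowest adjusted p and the highest mean FPKM. Other genes of the set are described as well, outside that rule. So are Fnip1, Rptor, single epithelial (Cdx2, Epcam, Cldn7), leukocyte and Paneth cell markers, the muscle markers, further AMP kinase subunits and the other proton pump genes of the lysosomal list. Of the list genes 1 was unmatched and 1 was matched through a synonym. As alternatives, scaling used library size alone or DESeq2 size factors, the test was DESeq2 1.42.0 or limma voom (limma 3.58.1), the filter was dropped or set to 1 CPM in 3 libraries, the replicate number entered as a block, and libraries were left out in turn. FPKM values were also tested with limma, on log2(FPKM + 0.1) and on log2(FPKM + 1), where a gene reached 1 FPKM in 3 libraries. Figures were drawn with matplotlib.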

Additional observations from a re-analysis of the deposited data

How the results depend on the processing

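Of 22 named autophagy and TFEB family genes under 15 alternatives (328 comparisons in all), 266 comparisons kept direction and side of the threshold, 43 lost the call, 8 gained one and 11 changed sign. The genes called higher numbered 5 with TMM factors, 11 with library size alone, 8 with DESeq2, and 10 and 10 with limma on log2(FPKM + 0.1) and log2(FPKM + 1). The median log2 fold change of the set, -0.10, was 0.0388, 0.0130 and 0.0078 with library size alone and these FPKM fits, and the lysosomal targets called were 11, 11 and 11 instead of 6. Under the same settings Gabarap stood at 0.10, 0.10 and 0.10 and Prkab1 at 0.0835, 0.0902 and 0.0880, and Mitf at 0.0496 with library size alone. Those fits move the median of all genes from -0.05 to 0.09, 0.12 and 0.10. The fall in the Map1lc3a share, -2.79 percentage points on FPKM, was -2.12 on counts.

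With 1 library left out, 1009 to 3304 of all genes were called (2619 with all 6), with 1 to 6 genes of the set higher, 2 to 10 lower and a median of -0.12 to -0.03. The further autophagy genes called numbered 7 to 16, lysosomal targets 3 to 7 and TFEB regulators 4 to 9. Gabarap ran from -0.10 to 0.0549, Mitf from -0.53 to 0.16 and Prkab1 from -0.22 to 0.19. With 2 libraries left in a group, fewer samples enter the fit.

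Replicate numbers are shared between the groups, but the labels do not say what they mark. Deviations of same-numbered libraries correlated at 0.274, 0.253 and 0.0842, and each library correlated best with its own number, a hint from the data and not the design. With the replicate number as a block, 6 genes of the set were higher and 10 lower (1728 and 1674 of all genes), with Atg3 lost (adjusted p = 0.0548) and Atg14, Atg4a, Bnip3l and Pik3r4 added by edgeR's test. Depth limits Mitf, Atg10 and Atg9b most.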
